A study of Mus musculus with 12 samples.

Results

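Müller glia are the principal glial cell of the retina, and 8 genes that mark them were followed across both lists of differentially methylated regions made from whole retinas of mice lacking the TET enzymes. The genes were Slc1a3, Rlbp1, Glul, Aqp4, Sox9, Vim, Apoe and Kcnj10. Regions were counted where they overlapped the gene, as annotated on mm10 by GENCODE M21, or the 5 kb on either side of it. This gave 62 of the 193836 regions called from whole-genome bisulfite sequencing (WGBS) and 109 of the 592906 called from bACE-seq, in which bisulfite and an APOBEC deaminase leave 5-hydroxymethylcytosine as the base still read as cytosine. The genes were chosen by name, with earlier results of these data known. For comparison, all 20780 autosomal protein-coding genes were treated in the same way.

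Retinas were taken at postnatal day 21 from C57 BL/6J mice of 2 genotypes. In the Tet tcKO (triple conditional knockout), floxed alleles of Tet1, Tet2 and Tet3 were deleted in retinal progenitors by the Chx10-Cre-GFP transgene, a driver with mosaic expression for which Cre-positive animals were in-crossed. Controls, called Cre-, were labelled wild type for genotype and came from breeders without the transgene. Each assay had 3 libraries per genotype, 12 in all. The lists hold 1 mean per genotype and region, so the spread between retinas and the depth behind a value are unknown, and no difference described here could be tested against replicate error.

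Müller glia arise from the same retinal progenitors as the neurons and are among the last cells to be born. They clear glutamate and potassium from around neurons, move water and recycle the chromophore of visual pigment. The methyl mark on cytosine (5-methylcytosine, 5mC) is oxidised by TET enzymes, first to 5-hydroxymethylcytosine (5hmC), on the way to its removal. WGBS reads 5mC and 5hmC together, and bACE-seq reads 5hmC alone. Müller glia are a minority of the cells in a whole retina, where rods prevail, so each level averages over all cell types, and a change in cell make-up cannot be told apart from a change within cells. Expression was not analysed here, so the glial identity of the 8 genes rests on common knowledge and was not checked in these samples.

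The 4 sequences shown here come from WGBS gains that differ in where they lie and in how dense their CpGs are. They were read from the GRCm38 (mm10) reference, 5′ to 3′ on the strand of the gene, with each CG, the dinucleotide that the assays read, in capitals. The Rlbp1 stretch (chr7:79387049-79387341, minus strand, 293 bases, 7 CpGs) runs up to the start site, and the Kcnj10 stretch (chr1:172341129-172341209, plus strand, 81 bases, 7 CpGs) does the same for a CpG-rich start. The Sox9 stretch (chr11:112784785-112785084, plus strand, 300 bases, 27 CpGs) is coding exon. The Vim stretch (chr2:13576046-13576345, plus strand, 300 bases, 6 CpGs) is intron.
Rlbp1: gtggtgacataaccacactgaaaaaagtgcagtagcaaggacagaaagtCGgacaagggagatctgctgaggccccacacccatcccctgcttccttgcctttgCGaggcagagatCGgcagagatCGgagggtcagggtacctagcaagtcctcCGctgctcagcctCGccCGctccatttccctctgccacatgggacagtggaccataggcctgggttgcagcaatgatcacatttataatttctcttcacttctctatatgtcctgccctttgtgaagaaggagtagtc
Kcnj10: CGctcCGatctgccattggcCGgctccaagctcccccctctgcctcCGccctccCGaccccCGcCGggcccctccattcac
Sox9: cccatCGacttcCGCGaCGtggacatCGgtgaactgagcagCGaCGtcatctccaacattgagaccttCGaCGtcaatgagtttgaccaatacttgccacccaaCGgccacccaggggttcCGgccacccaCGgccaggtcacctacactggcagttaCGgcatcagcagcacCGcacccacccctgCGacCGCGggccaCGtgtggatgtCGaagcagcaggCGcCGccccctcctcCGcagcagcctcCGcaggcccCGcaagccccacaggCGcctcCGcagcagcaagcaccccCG
Vim: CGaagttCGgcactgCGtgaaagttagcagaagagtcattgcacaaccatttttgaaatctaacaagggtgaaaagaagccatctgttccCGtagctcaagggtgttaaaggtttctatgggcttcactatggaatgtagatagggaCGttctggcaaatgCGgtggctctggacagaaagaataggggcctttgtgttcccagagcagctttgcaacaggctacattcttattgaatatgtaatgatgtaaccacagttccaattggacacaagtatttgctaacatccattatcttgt

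Every region at the 8 genes went the same way within its assay. All 62 WGBS regions were higher in Tet tcKO than in Cre-, and all 109 bACE-seq regions were lower. Each of the 8 genes had at least 1 WGBS gain and 1 loss of 5hmC, but so did most genes: 78.5% of all genes had a WGBS gain and 89.5% a 5hmC loss. No member had a WGBS loss, found at 4.46% of all genes, or a 5hmC gain, found at 0.39%. Weighted by CpG number, the WGBS level of the member regions was 50.7% in Cre- and 66.8% in Tet tcKO, beside 56.8% and 74.2% over all autosomal gains. The 5hmC level was 16.8% and 4.51%, beside 16.2% and 3.88% over all autosomal bACE-seq regions.

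**Figure D1:**
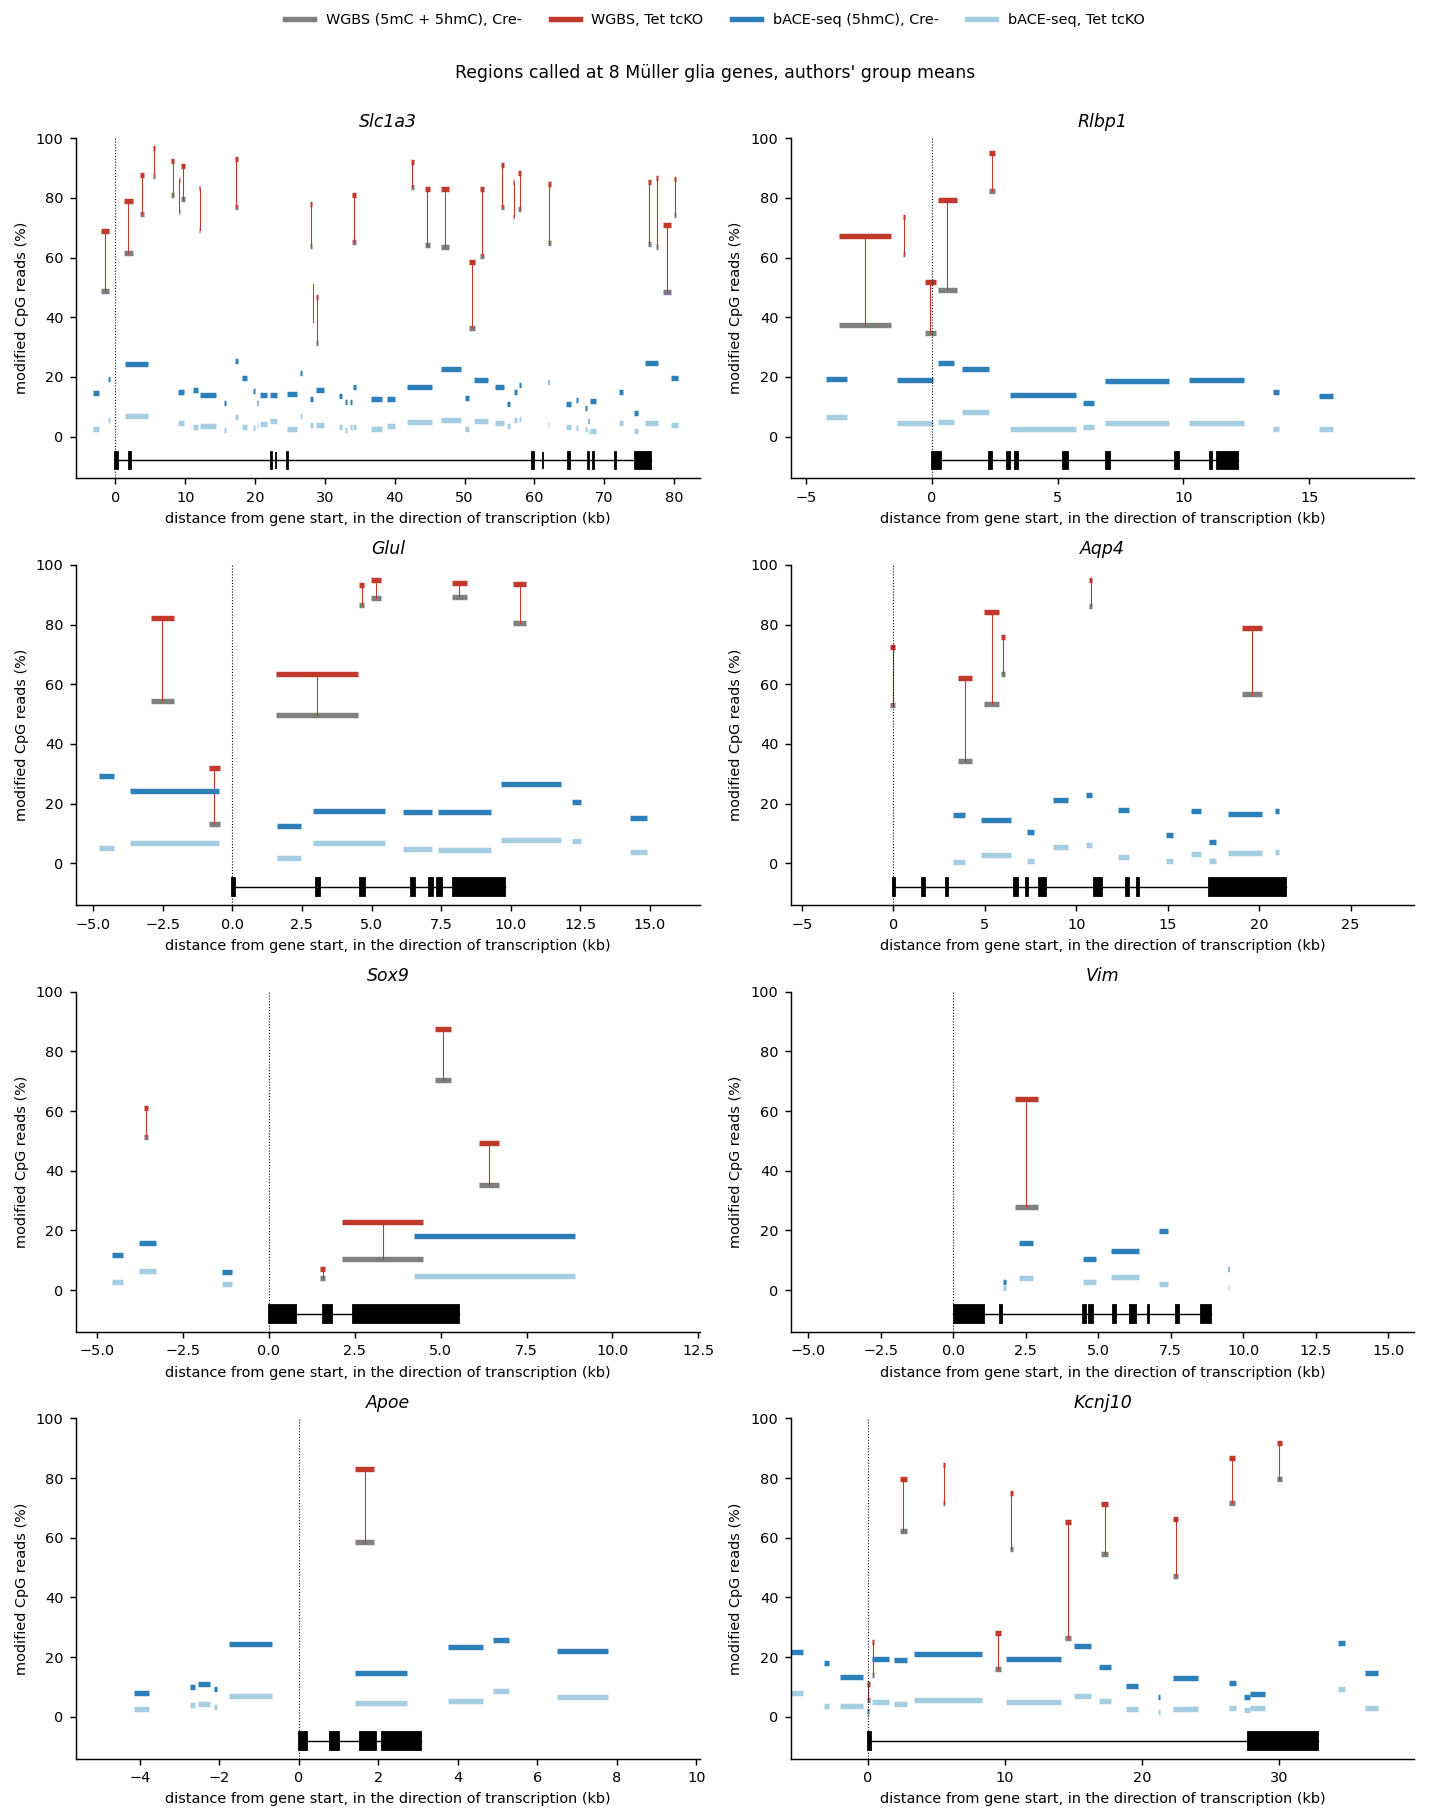
Level of each region (y axis, % of CpG reads read as modified) by distance from the gene start (x axis, kb, in the direction of transcription) at 8 Müller glia genes. Grey and red bars are WGBS levels in Cre- and Tet tcKO, joined by a thin line, dark and light blue bars are 5hmC levels in Cre- and Tet tcKO, each bar is the authors' mean for 1 genotype and spans the region, and black boxes are exons of all annotated transcripts. All 62 WGBS pairs rise and all 109 5hmC pairs fall.

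The genes differed in how much of their length was gained. Glul had 29.3% of its bases in a WGBS gain, Sox9 23.7%, Rlbp1 16.1%, Slc1a3 16.0%, Aqp4 10.8%, Kcnj10 9.00%, Vim 4.22% and Apoe 3.74%. The median of the 8 was 13.4%, against 3.61% over all genes, and 6 of the 8 were above the third quartile of all genes. Vim and Apoe, with 1 WGBS gain each, were close to the median gene when flanks were counted. Losses of 5hmC covered 66.2% of Glul, 57.0% of Rlbp1, 50.9% of Kcnj10, 44.5% of Apoe, 43.5% of Slc1a3, 37.0% of Sox9, 24.9% of Aqp4 and 12.5% of Vim. Here the median was 44.0%, against 29.2%, and 3 of the 8 were above the third quartile. These shares depend on the flanks, which make up most of the short loci. Within the gene alone, WGBS gains covered 53.6% of Sox9, 41.7% of Glul, 15.9% of Apoe, 14.9% of Aqp4, 14.2% of Slc1a3, 11.5% of Kcnj10, 9.36% of Rlbp1 and 8.96% of Vim, so that Sox9 passed Glul and Apoe moved from the lowest to the third highest. 5hmC losses within the gene covered 77.0% of Rlbp1, 66.5% of Glul, 55.1% of Kcnj10 and 44.9% of Slc1a3. They covered 42.8% of Apoe, 36.5% of Aqp4, 26.0% of Vim and 23.6% of Sox9.

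**Figure D2:**
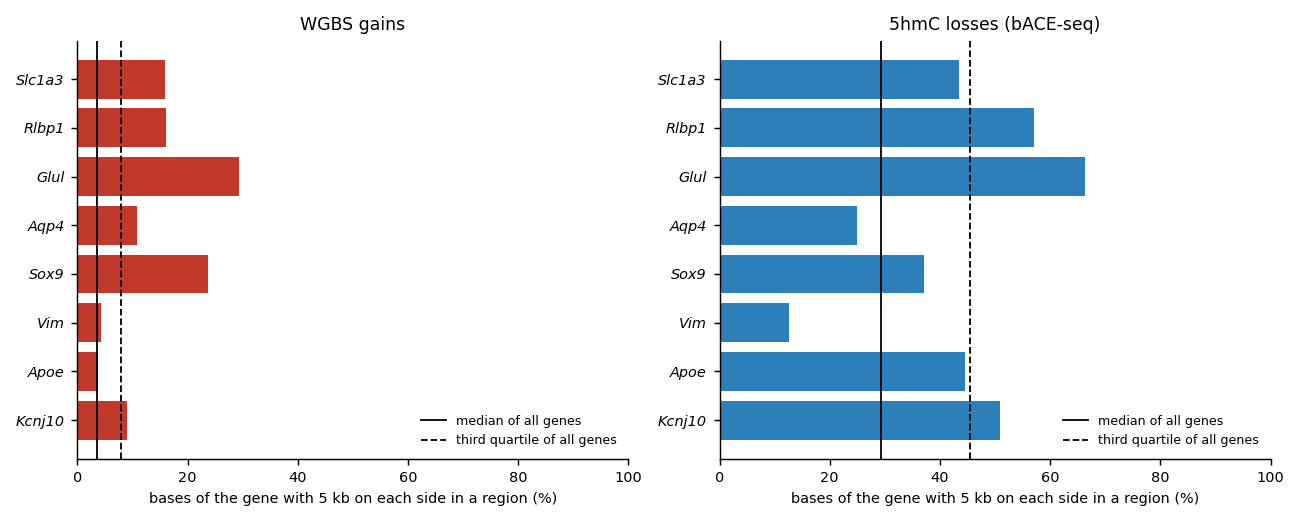
Share of bases of each gene with 5 kb on each side (x axis, %) that lay in a WGBS gain (left) or a 5hmC loss (right), with 1 bar per gene. The solid line marks the median and the dashed line the third quartile of 20780 genes, and Glul has the longest bar in both panels (29.3% and 66.2%).

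Over their called gains, Slc1a3 and Glul, both genes of glutamate handling, had the highest mean WGBS levels in Cre- of the 8. CpGs outside called regions have no level in the lists. Slc1a3 (chromosome 15, 8634124 to 8710764, minus strand) encodes the glutamate transporter GLAST, which takes up glutamate released by neurons. Its 26 gains held levels of 31.4% to 87.2% in Cre- and 46.9% to 96.6% in Tet tcKO, with a weighted mean of 64.6% and 80.8%. The one with most weight, by CpG number times difference, lay in an intron (8662996 to 8664141, 27 CpGs) and went from 63.5% to 83.0%. No WGBS gain reached the 32 CpGs within 500 bp of the gene start, the nearest edge lying at -841 bp from it. 5hmC fell in 42 regions of Slc1a3, from a weighted mean of 16.1% to 4.16%, and the one with most weight (8661252 to 8664141, 42 CpGs) went from 22.6% to 5.46%.

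Glul (chromosome 1, 153899944 to 153909723, plus strand) encodes glutamine synthetase, which turns that glutamate into glutamine. Its 7 gains averaged 62.1% in Cre- and 75.2% in Tet tcKO. The widest covered 5′ UTR, coding exon and intron (153901507 to 153904445, 52 CpGs) and went from 49.6% to 63.5%. Further along the gene, 3 gains that began at 86.5% to 89.4% rose by only 4.64 to 6.58 percentage points. Upstream of the start, by contrast, 13 CpGs (153899098 to 153899517) went from 13.1% to 31.9%. This gain also overlapped the neighbouring gene Teddm2. Over its called 5hmC losses, 5hmC averaged 20.2% in Cre-, the highest of the 8 genes, and 5.93% in Tet tcKO. The 5hmC region with most weight (153896268 to 153899467, 55 CpGs) went from 24.3% to 6.76% and overlapped Teddm2 too.

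The channel genes Kcnj10 and Aqp4 both had a gain across a start site, with very different CpG content around it. Kcnj10 (chromosome 1, 172341210 to 172374085, plus strand) encodes the inward rectifier that carries potassium out of Müller glia, and 54 CpGs lay within 500 bp of its start. The gain over the start (172341129 to 172341366, 20 CpGs), whose upstream part is printed above, went only from 5.65% to 10.9%. A 5hmC region of 8 CpGs across the same start went from 1.97% to 0.776%, the lowest Cre- level of the 109. Within the large intron of Kcnj10, 4 CpGs (172355590 to 172356032) went from 26.5% to 65.3%, the largest rise of the 62 at 38.8 points, with no 5hmC region over them. The gain of Kcnj10 with most weight, also in an intron (172358241 to 172358738, 12 CpGs), went from 54.6% to 71.5%. Its 11 gains averaged 39.1% and 53.0%. Over its 18 regions of 5hmC the means were 16.6% and 4.62%, and the one with most weight (172344618 to 172349571, 89 CpGs) went from 21.0% to 5.74%.

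Aqp4 (chromosome 18, 15389496 to 15410982, minus strand) encodes the water channel of glial endfeet. It has 4 annotated starts, and the gene start used here is the outermost one. Within 500 bp of this start lay 8 CpGs, the fewest of the 8 genes, and 6 of them lay in a gain that went from 53.2% to 72.5%. When only the longest coding transcript was used, this gain was classed as upstream flank and not as promoter. The 18 CpGs of a 3′ UTR gain (15390810 to 15391899) went from 56.9% to 78.8%. Over its 6 gains the means were 54.4% and 77.0%. Over its called 5hmC losses, Aqp4 kept the least of the 8, 2.82% in Tet tcKO against 15.3% in Cre-, or 18.5% of the Cre- level. In the region 15407081 to 15407739 the 5hmC level went from 16.3% to 0.591%. The 5hmC region with most weight (15390810 to 15392674, 27 CpGs) went from 16.6% to 3.55%. An antisense gene, AC133525.2, overlaps Aqp4.

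Rlbp1 (chromosome 7, 79374870 to 79387048, minus strand) encodes the retinaldehyde-binding protein CRALBP of the visual cycle, and its gains gathered at the start. Of the 20 CpGs within 500 bp of the start, 19 lay in a WGBS gain, the largest share among the 8. The gain over the start (79386900 to 79387341, 11 CpGs), to which the printed sequence belongs, went from 34.9% to 51.9%. The one just inside the gene (79386054 to 79386817, 19 CpGs) went from 49.1% to 79.4%. Losses of 5hmC covered the start as well, 23 CpGs (79386994 to 79388420) going from 19.0% to 4.66%, and all 293 printed bases lay in that loss. The 5 gains averaged 46.8% and 71.2%, and none lay in the later part of the gene. There 5hmC losses continued, and the one with most weight (79377635 to 79380164, 30 CpGs) went from 18.5% to 4.49%.

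Sox9 encodes a transcription factor of progenitors and glia, and Vim an intermediate filament. Over their called gains, they had the lowest mean WGBS levels in Cre- of the 8 genes. Sox9 (chromosome 11, 112782224 to 112787760, plus strand) averaged 19.3% in Cre- and 31.4% in Tet tcKO over 5 gains. One of these, reaching from intron through coding exon into the 3′ UTR (112784365 to 112786726, 84 CpGs), went from 10.5% to 22.9%, and none of the 300 printed bases of it lay in a 5hmC loss. The 76 CpGs within 500 bp of the Sox9 start were in no WGBS gain. The 4 regions of 5hmC went from 15.8% to 4.48%, and the widest (112786453 to 112791121, 66 CpGs), which began in the 3′ UTR, went from 18.1% to 4.60%.

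Vim (chromosome 2, 13573927 to 13582826, plus strand) had a single gain, in an intron (13576046 to 13576842, 10 CpGs), which went from 27.9% to 64.0%, a rise of 36.1 points. It began 2119 bp from the gene start, so none of the 132 CpGs within 2 kb of that start lay in a gain. Its 6 regions of 5hmC averaged 11.4% and 3.00%, the lowest Cre- mean of the 8, and the one with most weight (13579369 to 13580334, 20 CpGs) went from 13.0% to 4.51%.

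Apoe (chromosome 7, 19696109 to 19699188, minus strand), which encodes the lipid carrier apolipoprotein E, also had 1 gain, over intron, coding exon and 3′ UTR (19697293 to 19697781, 10 CpGs), which went from 58.7% to 83.1%. Its 9 regions of 5hmC averaged 17.2% in Cre- and 5.20% in Tet tcKO, and the one with most weight (19696465 to 19697781, 62 CpGs) went from 14.8% to 4.51%. At 30.3% of the Cre- level, this was the largest share of 5hmC kept among the 8. The flanks of this short gene reach into Apoc1 and Tomm40, so part of its 5hmC regions belongs to those genes too.

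By position, member gains were classed by their midpoint, with the promoter taken as 2 kb on each side of any annotated start. The 14 promoter gains went from 38.8% to 57.3%, the 31 intron gains from 62.2% to 78.1% and the 9 exon gains from 43.2% to 56.1%. Over all genes the same classes went from 38.7% to 53.7%, from 59.6% to 77.8% and from 61.0% to 74.5%. The exon class of the members thus began lower, and 84 of its 210 CpGs were those of the 1 Sox9 gain. For 5hmC, member promoters went from 16.1% to 4.13%, introns from 16.8% to 4.49% and exons from 12.0% to 3.04%.

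**Figure D3:**
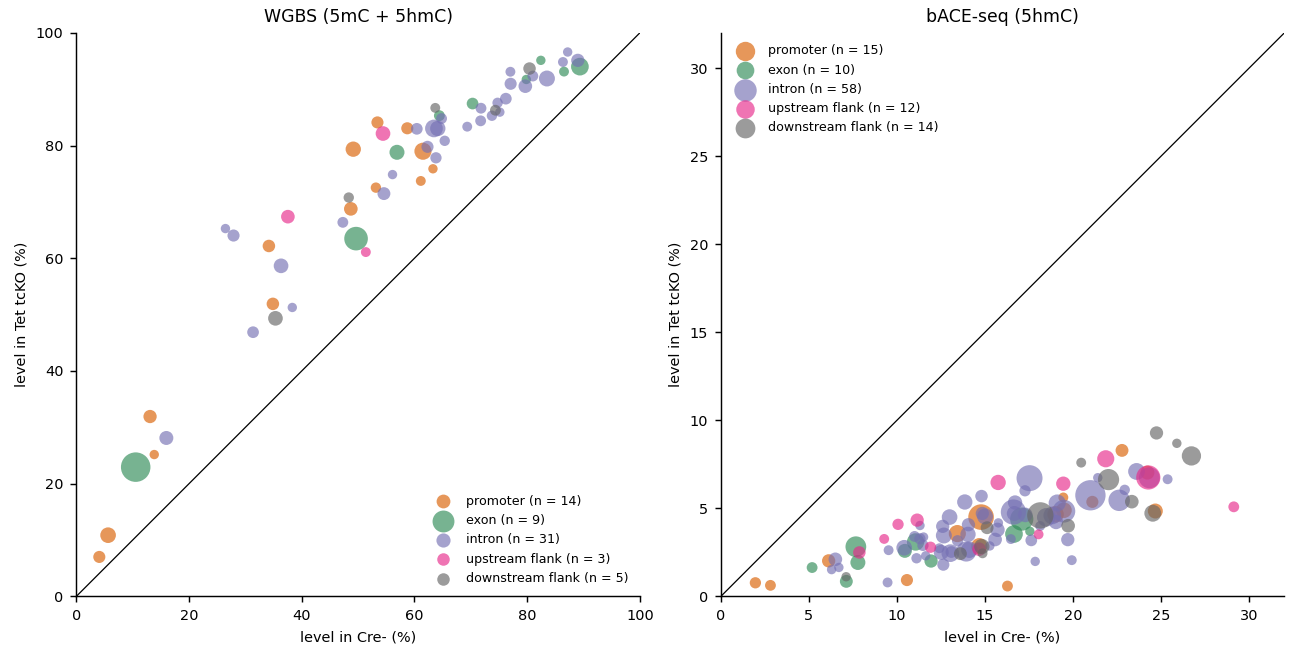
Level in Tet tcKO (y axis, %) against level in Cre- (x axis, %) for 62 WGBS regions (left) and 109 bACE-seq regions (right), 1 point per region, coloured by position, with area growing with CpG number and the line marking equal levels. All WGBS points lie above the line and all 5hmC points below it, none over 9.28% in Tet tcKO.

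All 8 genes had a WGBS gain within 2 kb of an annotated start, as did 52.6% of all genes, and all 8 had a 5hmC loss there, as did 81.6%. A gain over a start itself was found at 3 genes, Rlbp1, Aqp4 and Kcnj10, against 7.9% of all genes, and a 5hmC loss over a start at 2, Rlbp1 and Kcnj10, against 18.9%. The Kcnj10 loss rests on levels close to or under the rate of failed conversion that the paper estimated from a spiked-in plasmid. The count for Vim comes from its other annotated start, and genes with several starts, such as Apoe with 6, have more chances to be counted.

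The size of the rise varied with the level in Cre-. Gains that began under 40% (15 regions) had a median rise of 15.5 points, those from 40% to 70% (26 regions) 19.2 points, and those over 70% (21 regions) 11.9 points. The matching medians over all autosomal gains were 20.3, 19.0 and 10.7 points.

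All member regions of a list went the same way, so a WGBS gain that met a 5hmC region always met a loss. Of the 62 gains, 55 overlapped a 5hmC loss, while 44 of the 109 losses overlapped a gain. In 47 gains at least 50% of the CpGs lay in 5hmC losses, a limit chosen after seeing that the large Sox9 gain met a 5hmC loss only at its end. Over these the WGBS level went from 61.2% to 77.5%, 5hmC went from 18.8% to 5.08%, and what was left after taking 5hmC from the WGBS level went from 42.4% to 72.4%. This remainder had to be larger in Tet tcKO, since only called WGBS gains that overlap called 5hmC losses enter it. Among the 7 genes with such a region, it went from 27.9% to 67.4% at Rlbp1 and from 42.7% to 69.1% at Glul. The remainder rests on levels averaged over regions whose edges differ, and is not an estimate per CpG. In Cre- it was negative at a gain of Glul (153899098 to 153899517, -11.2 points) and at one of Kcnj10 (172341503 to 172341651, -5.65 points). It cannot be a 5mC level there, and both gains are part of the means.

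**Figure D4:**
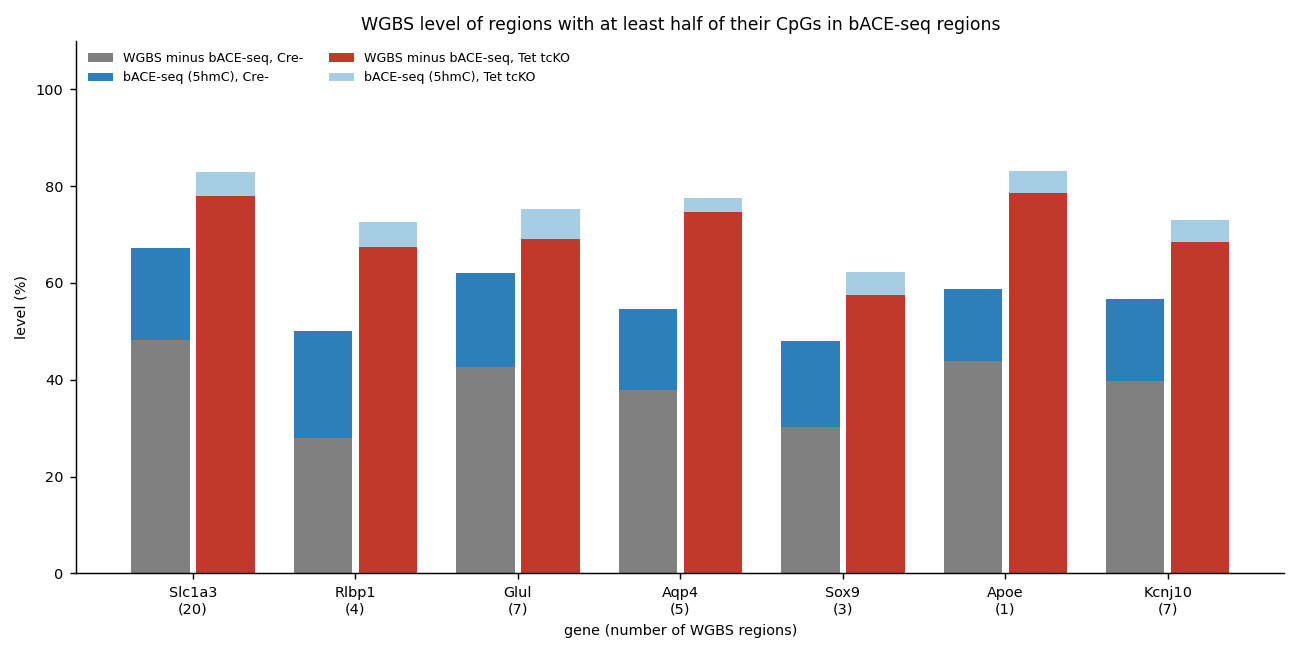
WGBS level (full bar height, %) of gains with at least 50% of their CpGs in 5hmC losses, split into 5hmC from bACE-seq (blue) and the rest (grey or red), in Cre- (left bar) and Tet tcKO (right bar) of each gene, with the number of gains in brackets. There are no replicate values to draw error bars from, and Vim has no such gain.

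A further 26 genes, listed as Müller glia genes without a check of their expression, gave a like picture for cover. Their median share of bases in a gain was 12.5%, and 18 of 26 were above the third quartile of all genes. Slc38a3, a glutamine transporter, had 49.5%, Sox8 35.7% and Dkk3 31.8%, while Abca8a had 1.30%, Hes1 2.12% and Mlc1 4.26%. A WGBS loss, found at 4.46% of all genes, lay at 6 of the 26 (Hes1, Sox2, Pdpn, Lhx2, Notch1 and Hes5). It lay at 2 of 10 progenitor genes, and at none of the 8 or of the rod, bipolar cell and astrocyte genes. Rod genes had more of their bases in a gain: a median of 46.3% over 12 genes, from 13.9% at Cngb1 to 70.3% at Gnb1. A gain lay over a start at 12 of 12 rod genes. Median shares of bases in a gain were 8.69% for 10 bipolar cell genes, 16.2% for 10 progenitor genes and 6.25% for 4 astrocyte genes. Counted by CpGs, medians were 55.5% for rod genes, 20.9% for the 8, 16.2% for the 26 and 6.55% for all genes. They were 11.7% for progenitor genes and 11.3% for both bipolar cell and astrocyte genes. Progenitor genes were thus above the 8 by bases and below them by CpGs. By median the 8 genes lay between the rod genes and all genes, and no test of these differences was made.

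Over called losses, the share of the raw 5hmC level that was kept was somewhat higher at most of the 8 genes than at the median gene. The median was 27.0% of the Cre- level, against 23.7% over all genes, and 6 of the 8 were above the third quartile of all genes. The 26 further genes had a median of 24.6%, with 10 of 26 above that quartile, and the rod genes 23.8%. Medians were 24.8% for bipolar cell genes, 22.9% for progenitor genes and 22.8% for astrocyte genes. Cytosines that escape conversion also read as 5hmC and were not subtracted. The median Tet tcKO level was 4.42% for the 8 genes and 3.47% over all genes. The paper estimated failed conversion from a spiked-in plasmid, at a rate of the same order as these levels. An unknown but possibly large part of them can be such background, and subtracting it would lower the shares kept. The differences in share kept were not tested.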

How the data were processed

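Genomic DNA of whole mouse retinas was profiled by WGBS and bACE-seq. Sample labels gave the groups, 3 libraries of each genotype in either assay. Per the study's methods and the submitters' processing notes, the authors trimmed reads with Trim Galore (0.4.4), aligned them to mm10 with Bismark (0.18.2) and called regions with DSS on smoothed levels of all replicates of a genotype. DSS thus sets which regions exist, and smoothing shares signal between neighbouring CpGs. The deposited lists give for each region a CpG number and the mean methylation fraction of each genotype, printed here as percent. The order of the genotypes in the 2 columns follows the names of the lists. The authors' columns of the difference and of a summed test statistic were not used.

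Regions were joined to genes of GENCODE M21 with 5 kb on each side, by an overlap of at least 1 base, and all differences are Tet tcKO minus Cre-. Means over regions were weighted by CpG number. Region edges were checked against the GRCm38 reference: all 62 and 109 regions began and ended on a CpG. In bACE-seq, cytosines that escape conversion also read as 5hmC. Interval code was tested on simulated data. Python (3.11.15), numpy (2.4.6) and pandas (2.3.3) were used. No test was run, since the lists hold no replicate values or depth. Chromosomes X and Y were left out of the background. The genes named were the 8 members and, of each in both assays, the region with the largest CpG number times difference and any region over a start; of the 26 further Müller glia genes the 3 with the highest and the 3 with the lowest cover were named, and of the rod genes the extremes. Other regions were picked after their values were seen. The members and all gene lists were chosen with earlier results of these data known.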

Additional observations from a re-analysis of the deposited data

How the results depend on the processing

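Of 217 alternative values for 54 results, 161 were unchanged and 56 moved, 40 of these for a single gene, position class or pair of assays. None reversed, but a reversal was not possible. All member regions of a list had the same sign, and shares, levels and counts have no direction. A share or level counted as unchanged inside the 95% Wilson interval that its CpGs give as trials, which is not an error between retinas, and a count within 1.5 times. With regions of at least 10 CpGs, 29 WGBS and 69 bACE-seq regions were left, the median share of bases was 8.34% in gains and 38.8% in 5hmC losses, and the WGBS means were 46.0% (Cre-) and 62.3% (Tet tcKO). With differences of at least 0.1 as a fraction, 70 bACE-seq regions covered a median of 35.8%. At 0.2, 15 WGBS regions covered 4.17%, and 1 bACE-seq region was left, with a median cover of 0%. With 10 kb on each side the medians were 10.8% and 41.2%. Unweighted WGBS means were 57.1% (Cre-) and 73.6% (Tet tcKO). The minimum of 50% shared CpGs for pairing the assays was chosen after seeing the data, and pairing by any overlap, as first planned, left 33.4% (Cre-) and 63.0% (Tet tcKO) after taking 5hmC from WGBS.

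No paired analysis was possible because the lists hold 1 mean per genotype. Leaving out each replicate could not be run for the same reason. Depth limits every value to an unknown extent.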
